A study of Mus musculus with 8 samples.

Results

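The 44 genes described here drive, time or restrain cell division. They were selected by gene symbol from a set list, with no measured value in the rule, and all 44 were present among the 43629 genes of the count table. By the step at which each is best known to act, 9 belong to G1, 11 to S phase, 16 to G2 and mitosis, 6 are inhibitors of the cycle, and 2 (Stmn1, a regulator of microtubules, and H2afz, a variant of histone H2A) were kept apart from these phases. All 44 had at least 1 count. Most were sparse, in that 26 of the 44 had fewer than 100 counts over the 8 libraries together, and 32 had a count in every library.

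The libraries came from the growth plate of the knee in Axin2CreERT2;R26RTdTomato mice, in which the Axin2 promoter drives a Cre recombinase that tamoxifen activates, so that cells expressing Axin2 and their descendants turn red. Every mouse had 3 daily tamoxifen injections starting at P23 and was sacrificed at P30, and no group went untreated. Red resting chondrocytes and unlabeled, flattened proliferative chondrocytes at least 50 µm from the secondary ossification center were cut by laser from 8 µm sections of 4 mice, 2 of them male (mice 1 and 2) and 2 female (mice 6 and 13), giving 4 resting and 4 proliferative libraries, with both zones taken from each mouse. The sample labels name tibiae, and the methods name the distal femur and the proximal tibia. In bulk libraries of this kind, fewer cells of a type and less RNA per cell cannot be told apart.

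In a dividing cell, D-type cyclins with Cdk4 and Cdk6, then cyclin E with Cdk2, phosphorylate the pocket proteins (Rb1, Rbl1 and Rbl2), which releases E2F factors and switches on the genes of DNA replication. Cyclin A, cyclin B and Cdk1 then carry the cell through G2 and mitosis, and small inhibitor proteins such as p21 (Cdkn1a), p27 (Cdkn1b) and p57 (Cdkn1c) hold the kinases back. In the growth plate, resting chondrocytes divide rarely and supply the columns of flattened proliferative chondrocytes, which divide quickly before they enlarge.

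The libraries were shallow, at 192882 to 462044 counts for the resting and 249284 to 631474 counts for the proliferative libraries. Levels are given as CPM (counts scaled to a fixed library size) on library totals scaled by TMM factors, and 3 counts, taken as the smallest readable amount, correspond to 4.81 to 14.7 CPM depending on the library. The cut regions held other cells. All 8 chondrocyte markers were called higher in the proliferative zone, where their sum was 31320 to 55950 CPM against 6717 to 17152 CPM in the resting zone. All 8 erythroid markers (resting 2297 to 12373, proliferative 141 to 1879 CPM), 7 of 8 neutrophil markers (3126 to 3864 against 0 to 532 CPM), 7 of 8 pan-leukocyte markers (682 to 1052 against 1.60 to 169 CPM), 7 of 8 osteoclast markers and 6 of 8 osteoblast markers were called higher in the resting zone. Blood-forming cells of the marrow divide quickly, and the differences toward the resting zone given below point the same way as the blood and bone markers. Those toward the proliferative zone point the same way as the chondrocyte markers. The part of other cells in them was not tested.

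A call between the zones required an adjusted p below 0.01 and a log2 fold change past 1 in the edgeR quasi-likelihood test with the mouse as a block, with a positive fold change meaning higher in the resting zone. Of the 44 members, 23 passed the filter on low counts. A gene can pass it through either zone alone, so the counts and medians over these 23 describe them and do not speak for the 21 others. Of these 23, 1 was called, the retinoblastoma gene Rb1, which was higher in the resting zone, while 10.2% of the 3793 genes tested were called in that direction. No member was called higher in the proliferative zone, against 6.06% of all genes. An unadjusted p below 0.05 was reached by 9 of the 23 with the resting zone higher (21.5% of all genes) and by 0 with the proliferative zone higher (17.2% of all genes). The fold change was positive for 19 members and negative for 4, with a median of 0.57 on the log2 scale against 0.04 over all genes tested. The 4 resting libraries lay above all 4 proliferative ones for 7 of the 23, against 17.8% of all genes, and the reverse held for 0, against 15.1%. Counted by mouse, 8 members were higher in the resting library of every mouse (24.6% of all genes) and 3, Ccnd1, Cdk1 and Mcm7, were lower in every mouse (22.5% of all genes). A fit that leaves out the mouse called 3 members higher in the resting zone, namely Rb1, Ccnd2 and Mcm4, where 11.0% of all genes were called.

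The other 21 members were read from a second fit over 11273 genes with at least 10 counts in total, in which 7.51% of genes were called with the resting zone higher and 3.13% with the proliferative zone higher (847 and 353 genes). These shares depend on the scaling, since TMM factors taken from all genes of that fit gave 666 and 437 calls and moved its median log2 fold change from 0.25 to 0.06. None of the 21 was called, and 4 of them had an unadjusted p below 0.05 with the resting zone higher, against 17.9% of all genes in that fit, and 0 had one with the proliferative zone higher, against 8.84%. The zones did not overlap for 4 of them, all with the resting zone higher (12.5% of the genes in that fit, and 7.52% for the reverse), and 6 were higher in the resting library of every mouse (19.4%). These percentages are over all genes of the fit, including the better counted ones past the filter, so they are not shares of equally sparse genes. The median log2 fold change of the 21 members was 0.71, and 18 were positive. The scale of this fit has to be read beside the genes around them, since the 7480 genes that the filter left out had a median of 0.41 and 61.5% of them were positive. Counts this low gave little resolution. The 95% interval of a member under the filter spanned several units on the log2 scale, so a value near 0 there does not show that the zones were alike.

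**Figure D1:**
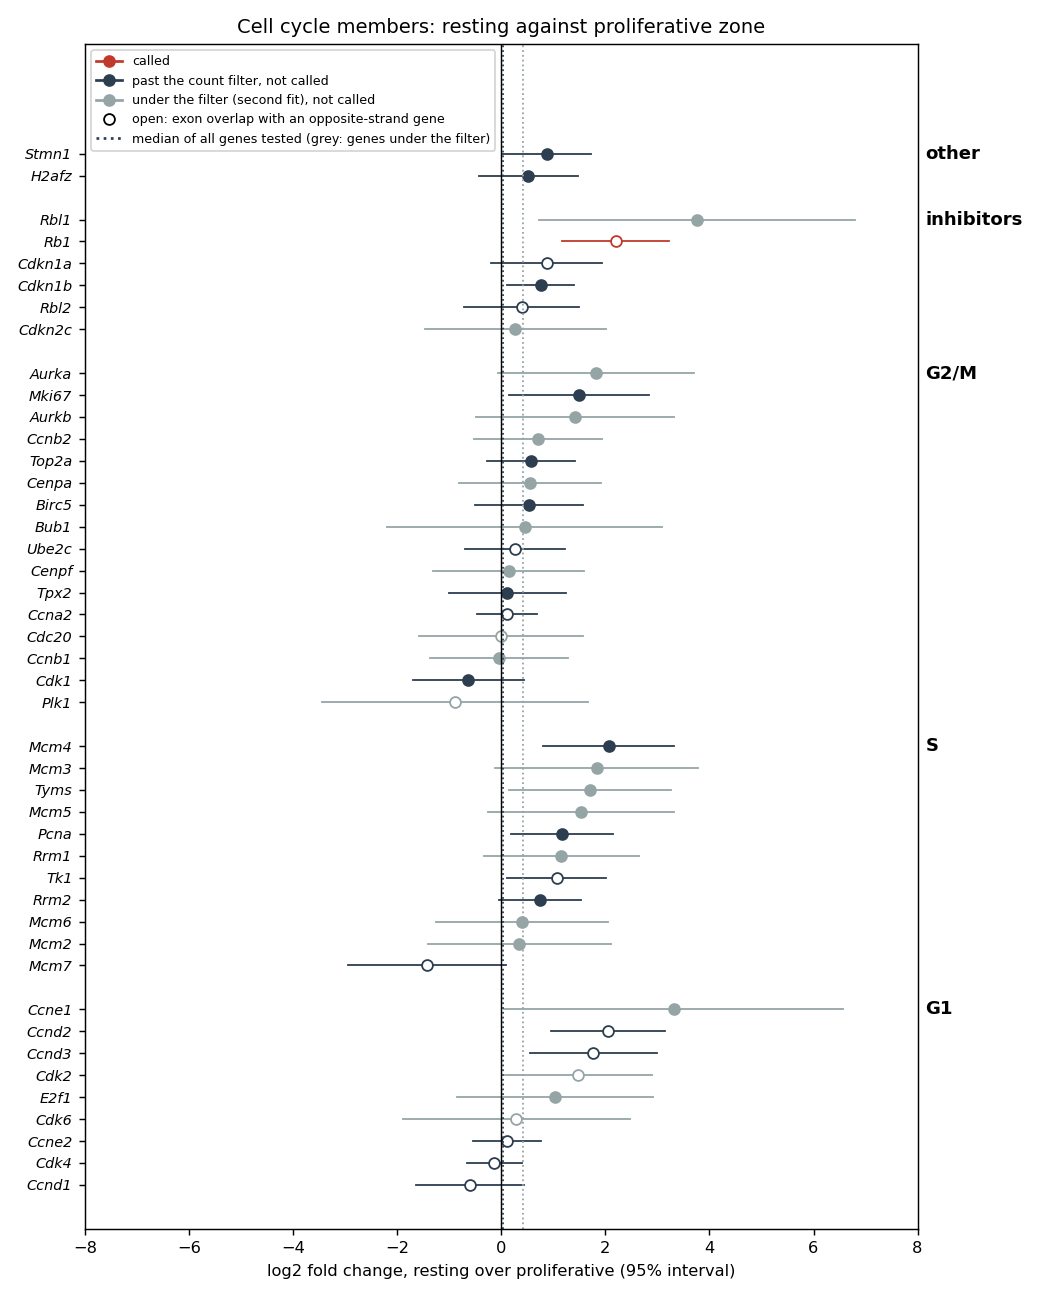
Log2 fold change of each of the 44 members, resting over proliferative zone, with its 95% interval, grouped by phase on the right, with dotted lines at the median of the 3793 genes past the filter (dark) and of the 7480 genes under it (grey). Rb1 is the only member called, S-phase members other than Mcm7 lie to the right of 0, and the G2/M members sit on both sides of it.

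Summed by phase, the 6 inhibitors and the S-phase genes were higher in the resting library of every mouse, whereas the G1 and G2/M sums were not. The S-phase sum was 501, 631, 390 and 393 CPM in the resting libraries of mice 1, 2, 6 and 13, and 311, 241, 232 and 286 CPM in the proliferative ones. Every resting value exceeded every proliferative value, and the log2 ratio within a mouse averaged 0.82 ± 0.40 (SD, n = 4). The inhibitor sum was 1133, 1154, 477 and 977 CPM in the resting libraries against 503, 358, 370 and 344 CPM in the proliferative zone, with a mean log2 ratio of 1.18 ± 0.58 (SD, n = 4).

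The inhibitor sum was higher in 4 of 4 mice, but the resting library of mouse 6 lay below the proliferative library of mouse 1, so the zones overlapped. The G2/M sum was 2047, 2336, 1124 and 1919 CPM in the resting libraries against 1592, 1589, 1752 and 1335 CPM in the proliferative zone. It was higher in the resting zone of 3 mice and lower in mouse 6, with a mean log2 ratio of 0.20 ± 0.57 (SD, n = 4). The G1 sum, 975 to 1257 CPM in the resting and 930 to 1302 CPM in the proliferative libraries, had a ratio of 0.06 ± 0.29 (SD, n = 4). These sums are descriptions without a test. Ccna2 held 72.3% of the G2/M counts and Cdk4 held 72.3% of the G1 counts. Cdkn1b held 45.8% of the inhibitor counts, and Rrm2 held 38.2% of the S-phase counts.

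Without Cdk4, the other 8 G1 genes summed to 313, 355, 398 and 373 CPM in the resting libraries and to 243, 243, 231 and 228 CPM in the proliferative ones. The zones then did not overlap, and the mean log2 ratio was 0.60 ± 0.19 (SD, n = 4). Without Ccna2, the G2/M sum was still higher in the resting zone of 3 mice and lower in mouse 6, with a mean log2 ratio of 0.49 ± 0.60 (SD, n = 4). Within the inhibitors, the 3 pocket proteins had a mean log2 ratio of 1.69 ± 0.70 and were higher in 4 of 4 mice. Of their counts, 653 were of Rb1, 251 of Rbl2 and 14 of Rbl1. The 3 Cdk inhibitors had a mean log2 ratio of 0.76 ± 0.56 and were higher in 3 of 4, with mouse 6 at -0.05. Cdkn1b held 897 of their counts, Cdkn1a 97 and Cdkn2c 46. p57 (Cdkn1c) is not among the members or in these sums. In the proliferative libraries it was at 384, 767, 416 and 560 CPM, above the 293, 214, 240 and 232 CPM of these 3 together. In the resting libraries it was at 9.81 to 60.8 CPM. The order of this sum therefore does not stand for Cdk inhibitors as a class.

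**Figure D2:**
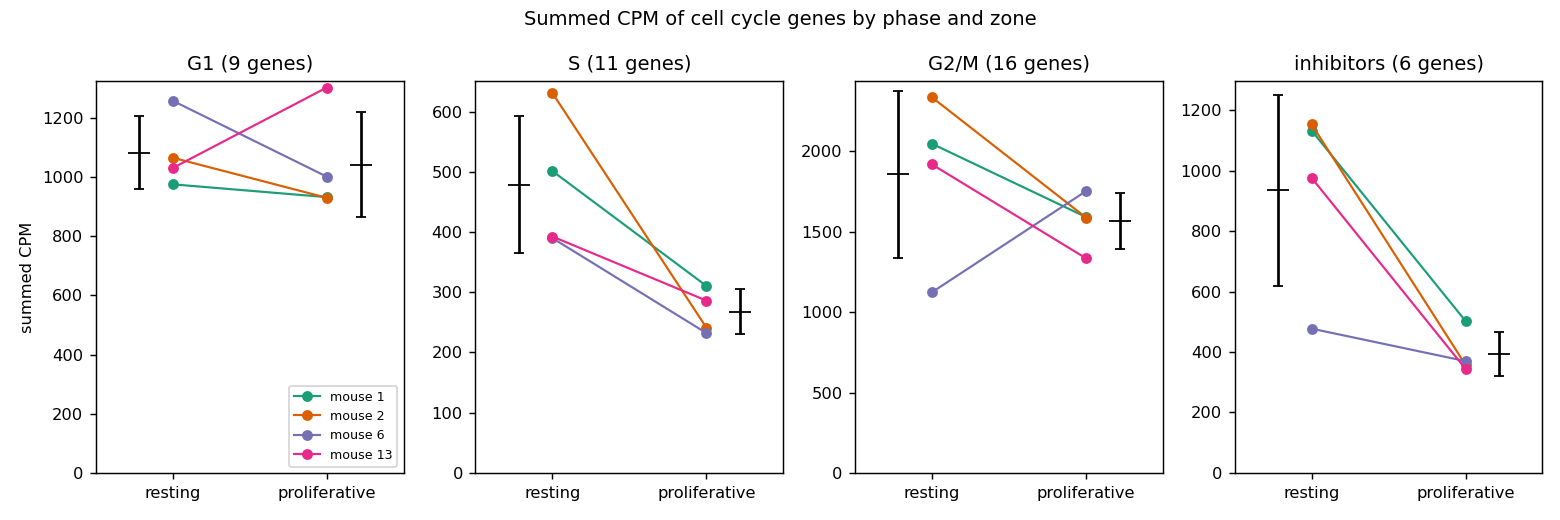
Summed CPM of the G1, S, G2/M and inhibitor genes in each library, with the 2 libraries of a mouse joined by a line and the mean ± SD of each zone beside them (n = 4). The S-phase sum falls from the resting to the proliferative library in all 4 mice, and the G2/M sum rises in mouse 6.

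Rb1 (ENSMUSG00000022105; GRCm38, chr14:73183673-73325822, minus strand) encodes the retinoblastoma protein, which binds E2F factors and blocks entry into S phase. It was measured at 337, 618, 173 and 432 CPM in the resting libraries of mice 1, 2, 6 and 13 and at 151, 56.5, 83.3 and 37.3 CPM in the proliferative libraries. The resting libraries all lay above the proliferative ones, with the smallest step in mouse 6. The log2 fold change was 2.20 (SE 0.47, adjusted p = 0.00504), or 4.59-fold. Rcbtb2 (43 counts) and Lpar6 (11 counts) on the opposite strand share 14.9% of the exon bases of Rb1 (653 counts), and since the strand setting of the counting is not given, the level of Rb1 is as uncertain as that of the other overlapped members described below. The call was lost without mouse 2 (log2 fold change 1.73) and without mouse 13 (1.80).

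Rbl1 (p107), the pocket protein that itself is switched on by E2F as cells enter S phase, had 13 counts over the resting libraries and 1 over the proliferative ones. Its level was 9.11, 12.7, 5.97 and 14.7 CPM in the resting libraries, 1.94 CPM in the proliferative library of mouse 1, and 0 in the other 3. The pooled ratio was 18.9, with an exact 95% interval from 2.84 to 803 that covers counting error only, and the second fit gave an adjusted p of 0.0828. Rbl2 (p130), the pocket protein of cells out of cycle, showed no common order, at 170, 28.5, 65.7 and 128 CPM in the resting and 56.3, 87.3, 46.5 and 74.7 CPM in the proliferative zone. Its log2 fold change was 0.39 (SE 0.50, adjusted p = 0.605). Mouse 2 alone had the higher value in the proliferative zone. Aktip, which had 687 counts against 251 and a log2 fold change of 0.66 (adjusted p = 0.0859), overlaps Rbl2 on the opposite strand.

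The start of Rbl1 is shown because it carries a site of the E2F type, the factors that pocket proteins hold. Promoter sequences of 250 bases before the start were taken from RefSeq (GRCm38.p6) and matched 34 of the 44 members. Not matched were Ccna2, Aurkb, Tpx2, Ccnd1, Ccnd2, Ccne2, Mcm4, Rb1, Stmn1 and H2afz. The E2F letters searched, on both strands, were TTTCCCGC, TTTCGCGC, TTTGCCGC and TTTGGCGC, and matches on the 2 strands can overlap. They occurred in 1.91% of 27025 promoters and in 6 of the 34 member promoters. In the 60 bases before the start of Rbl1 (chr2:157204535-157204594, minus strand), the capitals mark the match.
Rbl1: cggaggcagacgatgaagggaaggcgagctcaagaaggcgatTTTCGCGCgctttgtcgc

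p27 (Cdkn1b), a brake on cyclin E-Cdk2 and the inhibitor with the most counts among the 6 members, was measured at 559, 441, 187 and 329 CPM in the resting libraries and at 249, 192, 200.2 and 199 CPM in the proliferative ones. Mouse 6 was the exception, with the lower value in its resting library, and the other resting libraries all lay above every proliferative library. The log2 fold change of 0.76 (SE 0.29, adjusted p = 0.0796) did not pass. p21 (Cdkn1a), which p53 induces, lay at 51.6, 41.2, 35.8 and 34.4 CPM against 27.2, 15.4, 17.6 and 33.2 CPM, with a log2 fold change of 0.87 (SE 0.48, adjusted p = 0.213). The zones did not overlap for Cdkn1a, although the values of mouse 13 were close together. p18 (Cdkn2c), an inhibitor of Cdk4 and Cdk6, was too sparse to order, with 6.08, 12.7, 9.95 and 39.3 CPM in the resting and 17.5, 6.85, 22.4 and 0 CPM in the proliferative libraries, and an adjusted p of 0.902.

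Among the D-type cyclins, which carry growth signals to Cdk4 and Cdk6, Ccnd2 and Ccnd3 had their higher values in the resting zone, and Ccnd1 had them in the proliferative zone. Ccnd2 (ENSMUSG00000000184; chr6:127125162-127152193, minus strand) was at 57.7, 47.5, 39.8 and 113 CPM in the resting libraries and at 13.6, 15.4, 12.8 and 12.4 CPM in the proliferative libraries. The gap between the zones was wide, and the 4 proliferative libraries were nearly alike. Its log2 fold change of 2.05 (SE 0.50, adjusted p = 0.0103) fell just short of the call. In the second fit, read for calls on single members only where the filter left a gene out, Ccnd2 was called. Of the exon bases of Ccnd2, 7.9% overlap 2 genes of the opposite strand. These are 9330179D12Rik, with 0 counts, and Gm43126, which is not in the count table, so the level of Ccnd2 is uncertain too.

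Ccnd3 was at 57.7, 91.9, 29.8 and 29.4 CPM in the resting and 7.77, 24.0, 8.01 and 24.9 CPM in the proliferative zone (log2 fold change 1.77, SE 0.55, adjusted p = 0.0335). The zones did not overlap, with the closest pair in mouse 13. Bysl, a ribosome assembly gene on the opposite strand that overlaps 4.11% of the exon bases of Ccnd3 and had 6490 counts against 98, was itself called higher in the resting zone (log2 fold change 1.72, adjusted p = 0.000389). Its part in the value of Ccnd3 was not tested. Ccnd1 was at 36.5, 15.8, 37.8 and 19.6 CPM in the resting and 56.3, 39.4, 40.0 and 29.0 CPM in the proliferative zone, higher in the proliferative zone of 4 of 4 mice. The zones overlapped, and its log2 fold change of -0.61 (SE 0.47) did not pass, with an adjusted p of 0.385. Ccnd1 shares 23.4% of its exon bases with LTO1, which had 1575 counts against 124 and a log2 fold change of -0.75 (adjusted p = 0.162).

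The remaining G1 genes gave no call. Cdk4, the kinase partner of the D cyclins, was at 658 to 859 CPM in the resting libraries against 687 to 1074 CPM in the proliferative zone (log2 fold change -0.13, SE 0.24, 95% interval -0.66 to 0.40). Cyclin E2 (Ccne2) had a log2 fold change of 0.10 (SE 0.30). Cdk2, the kinase of cyclin E, was at 21.3, 25.4, 47.7 and 29.4 CPM against 9.71, 10.3, 8.01 and 16.6 CPM, with no overlap between the zones and an adjusted p of 0.160 in the second fit. Its opposite-strand neighbor Pmel was called higher in the resting zone (log2 fold change 1.89, adjusted p = 0.00300). Cyclin E1 (Ccne1) likewise had 13 counts over the resting libraries and 1 over the proliferative ones. Its ratio was 18.9 with an interval from 2.84 to 803, and its adjusted p in the second fit was 0.177. It was higher in the resting zone of 3 mice, while mouse 13 went the other way, with 0 counts in its resting library and the 1 proliferative count. E2f1, the activator at the G1/S step, and Cdk6 had log2 fold changes of 1.03 and 0.29, with both zones overlapping.

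Of the 11 S-phase genes, 10 had a positive fold change and 1, Mcm7, a negative one, and none was called. Over all genes with at least 10 counts in total, 58.2% were positive and 10.6% were called in either direction. The 5 that passed the filter had a median log2 fold change of 1.06 against 0.04 over all genes past it. The 6 under it had one of 1.34 against 0.41 over all genes the filter left out. Mcm4 (ENSMUSG00000022673; chr16:15623897-15637400, minus strand), a subunit of the hexameric MCM helicase that unwinds DNA at replication forks, was at 27.3, 34.9, 51.7 and 39.3 CPM in the resting libraries and 11.6, 5.14, 8.01 and 12.4 CPM in the proliferative libraries. All resting values exceeded all proliferative values, with a log2 fold change of 2.06 (SE 0.57, adjusted p = 0.0205). Mcm4 shares no exon base with a gene of the opposite strand.

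Pcna, the sliding clamp of the DNA polymerases, was at 51.6, 76.1, 75.6 and 39.3 CPM against 34.9, 29.1, 22.4 and 20.7 CPM (log2 fold change 1.17, SE 0.44, adjusted p = 0.0723). Tk1, thymidine kinase of the nucleotide salvage pathway, was at 103, 53.9, 59.7 and 44.2 CPM against 19.2 to 42.8 CPM (log2 fold change 1.06, SE 0.43, adjusted p = 0.0935). For both genes the lowest resting library lay just above the highest proliferative library. Among the sparser S-phase genes, the zones did not overlap for the helicase subunit Mcm5 (9.95 to 24.3 against 4.15 to 6.41 CPM) or for thymidylate synthase Tyms (17.9 to 33.4 against 0 to 13.6 CPM). In the second fit the adjusted p was 0.285 for Mcm5 and 0.141 for Tyms.

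The helicase subunits had different fitted values, although differences among them were not tested. Mcm3 (1.83) and Mcm5 (1.53) had log2 fold changes near that of Mcm4, while those of Mcm2 (0.35) and Mcm6 (0.40) were near the median of genes with so few counts. Mcm7 was at 15.2, 31.7, 11.9 and 0 CPM in the resting zone and 27.2 to 62.2 CPM in the proliferative libraries. It was higher in the proliferative zone of 4 of 4 mice, with a log2 fold change of -1.43 (SE 0.69) and an adjusted p of 0.152. Its exons overlap 2 genes of the opposite strand, of which Cops6 had a log2 fold change of 1.29 (adjusted p = 0.0142) and Ap4m1 one of -0.62 (adjusted p = 0.130). The ribonucleotide reductase subunits Rrm1 (1.16) and Rrm2 (0.74), which make deoxynucleotides, were each higher in the resting zone of 3 mice and did not pass.

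The E2F letters were found in 3 of the 10 S-phase promoters available, those of Mcm5, Mcm6 and Mcm7. Mcm5 and Mcm6 are printed because they carry the same type of site, while the zones did not overlap for Mcm5 and overlapped for Mcm6. The windows are chr8:75109329-75109408 (plus strand) for Mcm5 and chr1:128359726-128359835 (minus strand) for Mcm6, with E2F matches in capitals.
Mcm5: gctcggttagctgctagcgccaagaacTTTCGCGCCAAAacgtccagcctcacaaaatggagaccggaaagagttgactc
Mcm6: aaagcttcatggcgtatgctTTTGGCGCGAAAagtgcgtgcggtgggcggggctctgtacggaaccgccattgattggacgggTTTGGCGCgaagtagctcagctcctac

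The G2/M genes, which would mark cells about to divide, gave no call in either direction. Over all genes with at least 10 counts in total, 10.6% were called in either direction. The median log2 fold change of the 7 G2/M members past the filter was 0.25, against 0.04 over all genes past it. For the 9 under it the median was 0.45, near the 0.41 over all genes the filter left out. Mki67 (ENSMUSG00000031004; chr7:135689784-135716361, minus strand), the Ki-67 antigen of cycling cells, was at 54.7, 130, 13.9 and 54.0 CPM in the resting libraries and at 33.0, 13.7, 14.4 and 12.4 CPM in the proliferative libraries. The resting libraries of mice 1, 2 and 13 lay above every proliferative library, and that of mouse 6 was among the proliferative values. Its log2 fold change was 1.50 (SE 0.61, adjusted p = 0.0936), and 0.83 without mouse 2.

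The marker sums did not share 1 order with Mki67 over the resting libraries. That of mouse 6, with the lowest Mki67, had the highest chondrocyte sum (17152 CPM) and the lowest osteoblast, pan-leukocyte and endothelial sums (9768, 682 and 221 CPM), but its neutrophil sum (3778 CPM) was the second highest, and its erythroid sum (4490 CPM) lay above that of mouse 13 (2297 CPM). That of mouse 2, with the highest Mki67, had the highest neutrophil and pan-leukocyte sums (3864 and 1052 CPM), the second highest erythroid sum (11449 CPM) and the lowest chondrocyte sum (6717 CPM), but also the lowest osteoclast sum (1496 CPM). Among the proliferative libraries, that of mouse 1 had the highest Mki67 and also the highest erythroid, neutrophil, B lymphoid, pan-leukocyte, osteoclast and osteoblast sums and the lowest chondrocyte sum, while its endothelial sum (101 CPM) was the second lowest. Their part in the level of Mki67 was not tested.

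**Figure D3:**
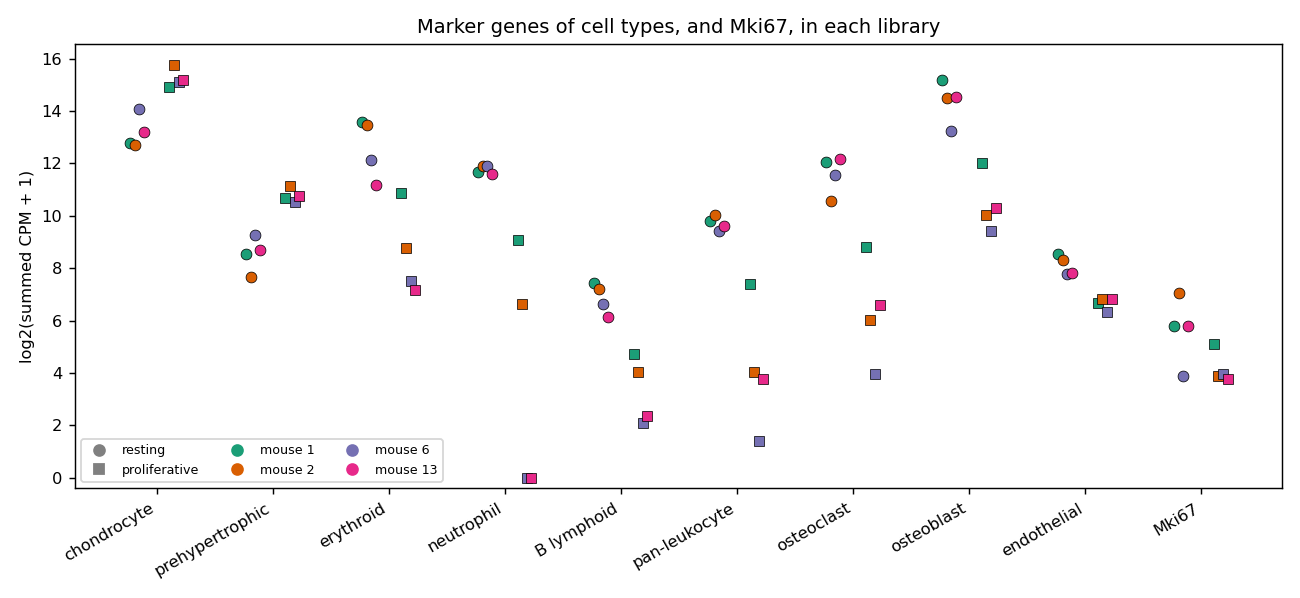
Summed marker genes of 9 cell types and, on the right, Mki67 alone, as log2(CPM + 1) in each library (circles, resting; squares, proliferative; colors, mice). Chondrocyte and prehypertrophic markers lie higher in the proliferative zone and the other lists in the resting zone, and the proliferative library of mouse 1 stands above the other 3 for the erythroid, neutrophil and pan-leukocyte lists.

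Topoisomerase Top2a, which untangles chromosomes before mitosis, was at 88.1, 216, 137 and 103 CPM in the resting libraries against 111, 90.7, 127 and 37.3 CPM in the proliferative zone, with overlapping ranges and a log2 fold change of 0.57 (SE 0.38, adjusted p = 0.311). Cyclin A2 (Ccna2), the cyclin of S phase and G2, was at 1428, 1547, 780 and 1467 CPM against 1112, 1168, 1326 and 1112 CPM, with a log2 fold change of 0.10 (SE 0.26) and a 95% interval from -0.47 to 0.68. Of its exon bases, 12.5% overlap Exosc9, which had 2111 counts against 4000. Cdk1, the kinase that triggers mitosis, was at 60.8, 44.4, 11.9 and 24.5 CPM against 75.7, 44.5, 46.5 and 33.2 CPM. It was higher in the proliferative zone of 4 of 4 mice, though the values of mouse 2 were nearly equal, and its log2 fold change was -0.64 (SE 0.48, adjusted p = 0.372).

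The remaining G2/M genes gave no call either, and most were under the filter. Aurora A kinase (Aurka), which matures the centrosome, was at 45.6, 19.0, 3.98 and 9.81 CPM in the resting libraries against 9.71, 5.14, 3.20 and 0 CPM in the proliferative zone. It was higher in the resting zone of 4 of 4 mice with overlapping ranges, and its log2 fold change of 1.82 (SE 0.95) had an adjusted p of 0.207. Aurora B (Aurkb) had 1.42, the cyclins Ccnb1 and Ccnb2 had -0.04 and 0.71, and the mitotic kinase Plk1 had -0.89 on the same scale. Ccnb2 has a processed copy, Ccnb2-ps, on which another 50 counts fell, so its value is uncertain. The checkpoint kinase Bub1 (0.45), the activator of the anaphase-promoting complex Cdc20 (-0.01), the centromere proteins Cenpa (0.55) and Cenpf (0.14), the spindle factor Tpx2 (0.12), the ubiquitin-conjugating enzyme Ube2c (0.25) and survivin (Birc5, 0.53) lay between -0.01 and 0.55. None of these had a 95% interval that left out 0.

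G2/M promoters are known for CCAAT boxes, bound by NF-Y, and for the cell cycle homology region (CHR), through which the DREAM complex of pocket proteins represses them. CCAAT, read on both strands, was found in 12 of the 13 G2/M promoters available and in 34.5% of all promoters. It was also found in 8 of 10 S-phase promoters, 1 of 6 G1 promoters and 1 of 5 inhibitor promoters, and in 70.0% of those of the further inhibitors and arrest genes. The CHR letters TTTGAA and TTCGAA, on both strands, were found in 6 of the 13, against 17.4% of all promoters, 2 of 10 S-phase promoters, 1 of 5 inhibitor promoters and 0 of 6 G1 promoters. These are matches of letters and not measured sites. Shown are Mki67 (chr7:135716460-135716579), Top2a (chr11:99024200-99024349) and Cdk1 (chr10:69352913-69353012), all on the minus strand, which hold the same letters, while the fold change was positive for Mki67 and Top2a and negative for Cdk1. Capitals mark CCAAT boxes and CHR matches.
Mki67: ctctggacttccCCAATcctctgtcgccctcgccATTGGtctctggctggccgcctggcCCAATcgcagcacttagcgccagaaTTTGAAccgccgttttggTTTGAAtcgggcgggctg
Top2a: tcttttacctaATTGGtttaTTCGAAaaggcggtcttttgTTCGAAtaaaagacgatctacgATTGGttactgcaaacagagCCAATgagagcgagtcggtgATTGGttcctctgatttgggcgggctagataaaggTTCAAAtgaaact
Cdk1: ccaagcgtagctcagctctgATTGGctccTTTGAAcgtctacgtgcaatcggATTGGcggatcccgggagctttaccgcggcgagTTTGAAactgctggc

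**Figure D4:**
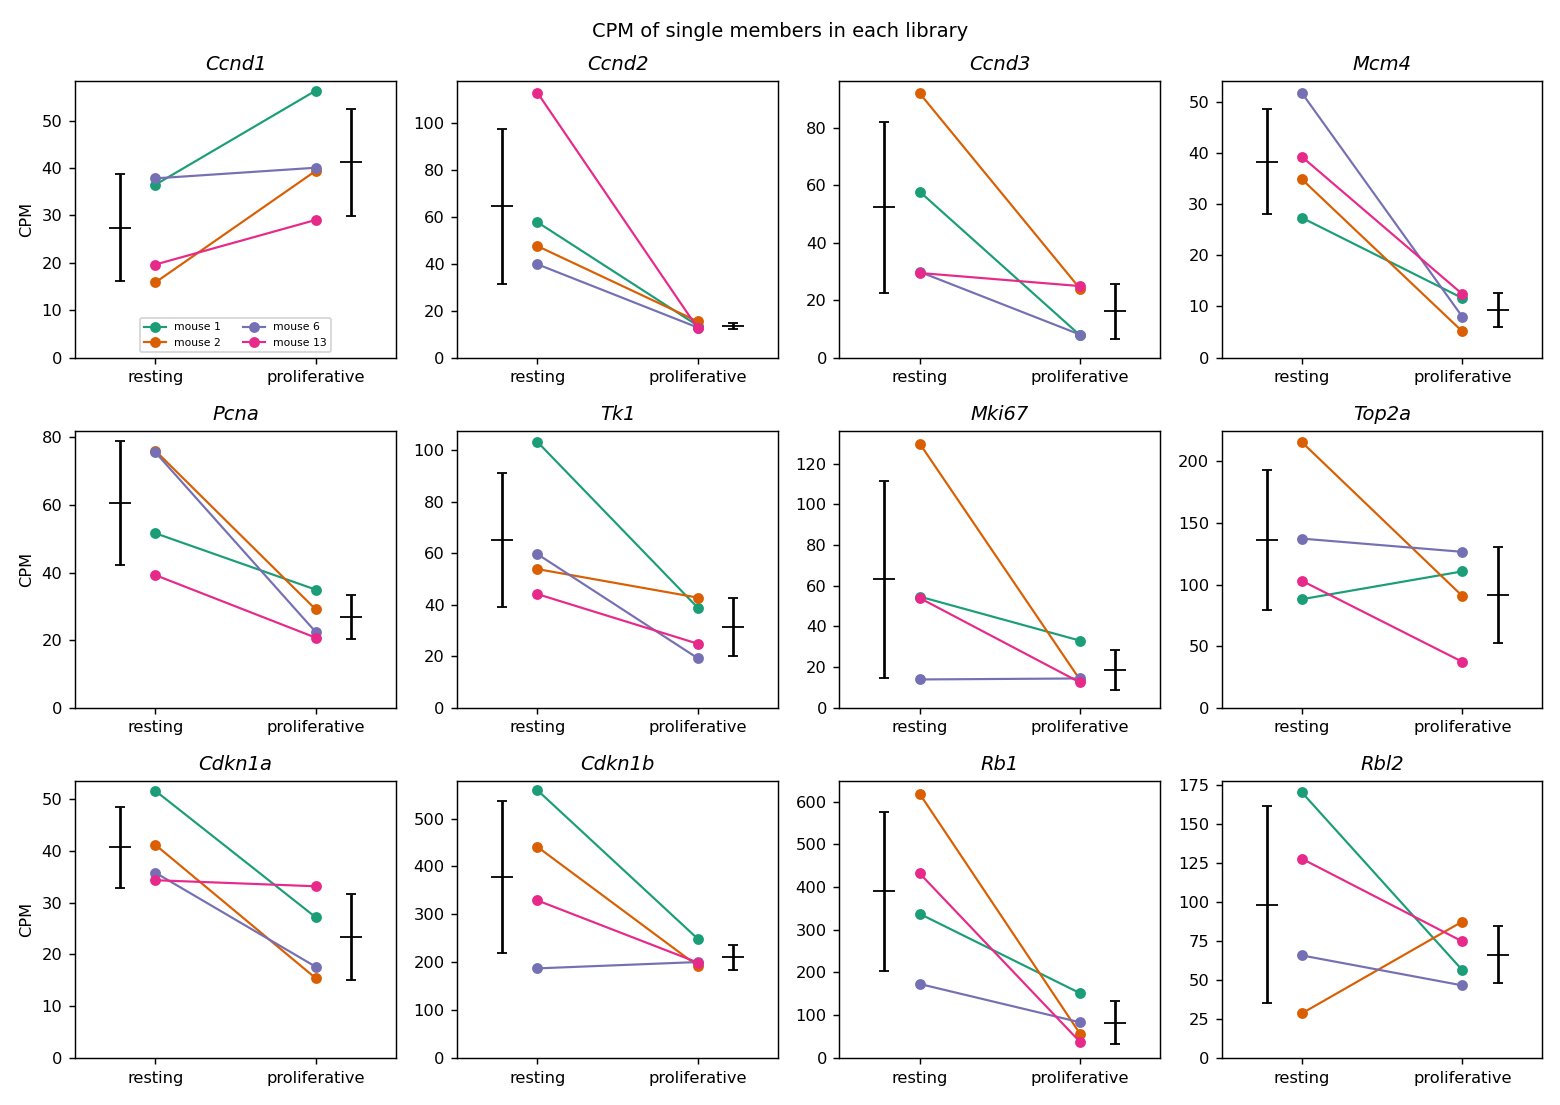
CPM of 12 members in each library, with the 2 libraries of a mouse joined by a line and the mean ± SD of each zone beside them (n = 4). Ccnd2, Mcm4 and Rb1 separate the zones in all mice, Ccnd1 is higher in the proliferative library of each mouse, and mouse 6 is flat for Mki67 and Cdkn1b.

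Stmn1, which destabilizes microtubules and is abundant in dividing cells, was at 185, 225, 75.6 and 147 CPM in the resting and 109, 49.7, 73.7 and 104 CPM in the proliferative zone. It was higher in the resting zone of 4 of 4 mice, with overlapping ranges and a log2 fold change of 0.87 (SE 0.39, adjusted p = 0.127). H2afz had a log2 fold change of 0.52 (SE 0.43, adjusted p = 0.416).

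Of the 44 members, 16 share exon bases with a gene on the opposite strand, and these 16 held 70.3% of the members' counts. They are Ccna2, Cdc20, Plk1, Ube2c, Ccnd1, Ccnd2, Ccnd3, Ccne2, Cdk2, Cdk4, Cdk6, Mcm7, Tk1, Cdkn1a, Rb1 and Rbl2. The strand setting used for counting is not given in the sources used here, and the female libraries held 18683 counts of Tsix against 1367 of Xist, its partner on the opposite strand. Xist and not Tsix is the RNA known to coat the silent X chromosome of female cells, so the order of this pair is the one that counting against the strand of the RNA would give. If that held for the whole table, the counts of all 44 members would be in doubt, those without an overlap included. This was not tested. Reads from a member and its partner can moreover not be told apart, which adds to the doubt for these 16. They include Rb1, the 1 member called, and Ccna2 and Cdk4, which together made up 51.4% of the members' counts. Of the 5 most abundant members, 4 are among the 16. The part of reads from the partner strand in their counts was not tested. Among the 28 members without such overlap, 11 passed the filter, 0 were called, and 5 had an unadjusted p below 0.05 with the resting zone higher, where 10.2% and 21.5% of all genes did so. Summed over members without overlap, the mean log2 ratio was 1.01 ± 0.49 (SD, n = 4) for S phase, 0.56 ± 0.62 for G2/M and 0.78 ± 0.62 for the inhibitors. The S-phase sum stayed higher in the resting zone of 4 of 4 mice, and the other 2 sums were higher in 3 of 4.

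Beyond the members, 133 further cell cycle genes were read in 4 lists. Of the 30 that passed the filter, 2 were called with the resting zone higher and 1 with the proliferative zone higher, with a median log2 fold change of 0.12. Over all genes past the filter these shares were 10.2% and 6.06%, and the median was 0.04. Of another 92 read from the second fit, 4 were called higher in the resting zone, with a median of 0.75, and 11 had too few counts. Over all genes of that fit 7.51% were called with the resting zone higher, and the genes the filter left out had a median of 0.41. By list, 0 of 48 other mitotic genes, 3 of 42 replication genes, 2 of 15 genes of G1 control and its ubiquitin ligases, and 2 of 17 further inhibitors and arrest genes were called in either direction, where 10.6% of all genes with at least 10 counts were. No list is shown by these counts to be called more often than other genes, and the genes named next are single calls.

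Cdkn1c (ENSMUSG00000037664; chr7:143458339-143461050, minus strand), which encodes p57, the inhibitor tied to cell cycle exit in cartilage, was the 1 gene of these lists called higher in the proliferative zone. It was at 60.8, 19.0, 37.8 and 9.81 CPM in the resting libraries and at 384, 767, 416 and 560 CPM in the proliferative libraries. Every proliferative value exceeded every resting value by a wide gap. The log2 fold change was -4.00 (SE 0.48, adjusted p = 0.000240), or 16.0-fold, whereas the fold changes of p21 and p27 were positive and did not pass. An opposite-strand gene, Gm44732, covers 30.7% of its exon bases and was not analysed here. The prehypertrophic markers moved in the same direction, with 5 of 6 called and sums of 1456 to 2231 CPM in the proliferative against 200 to 613 CPM in the resting zone. Their part in the result was not tested.

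Btg2, an antiproliferative gene induced by p53, was at 24.3, 12.7, 15.9 and 14.7 CPM in the resting libraries and had 0 counts in the proliferative libraries. Its mean in the resting zone was at least 2.40-fold higher than the floor of 3 counts per proliferative library, with an adjusted p of 0.00219 in the second fit. Cdk7, the kinase that activates other cyclin-dependent kinases, was at 416, 602, 267 and 344 CPM against 144, 101, 57.7 and 87.1 CPM. The zones were far apart in every mouse, with a log2 fold change of 2.07 (SE 0.29, adjusted p = 0.000493). Tfdp2, a dimerization partner of the E2F factors, was at 72.9, 117, 17.9 and 63.8 CPM against 15.5, 6.85, 4.81 and 4.15 CPM (log2 fold change 2.92, SE 0.64, adjusted p = 0.000208).

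The 3 replication genes called were Uhrf1, Lig1 and E2f2, each higher in the resting zone of 4 of 4 mice. Uhrf1, which copies DNA methylation onto new strands, was at 143, 190.2, 191 and 63.8 CPM against 33.2 to 60.9 CPM (log2 fold change 1.60, SE 0.37, adjusted p = 0.00819). DNA ligase 1 (Lig1), which joins replicated fragments, was at 75.9, 76.1, 55.7 and 14.7 CPM against 13.6, 6.85, 9.61 and 12.4 CPM (log2 fold change 2.36, SE 0.64, adjusted p = 0.00381). Zswim9 on the opposite strand, with 2 counts in the resting and 1 in the proliferative libraries, shares 5.79% of the exon bases of Lig1, so its level is uncertain too. For Lig1 the resting library of mouse 13 lay only just above the proliferative range. E2f2, an activating E2F, was at 48.6, 28.5, 23.9 and 4.91 CPM against 9.71, 3.42, 0 and 0 CPM, with overlapping ranges (log2 fold change 3.19, SE 0.94, adjusted p = 0.00839).

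These calls differed in how far they depended on 1 mouse or on the tool. Those of Cdkn1c and Cdk7 held with each mouse left out, at log2 fold changes of -4.60 to -3.62 and 1.88 to 2.25. That of Tfdp2 was lost without mouse 2 (2.45) or mouse 13 (2.71), that of Lig1 without mouse 1 (2.27), 2 (1.97) or 6 (2.28), and those of Uhrf1 (1.31 to 1.71), E2f2 (2.59 to 3.92) and Btg2 whichever mouse was left out. DESeq2 left Lig1 at an adjusted p of 0.0220 and E2f2 at 0.0438, short of the call. TMM factors from all genes of the second fit left them at 0.0112 and 0.0187.

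**Figure D5:**
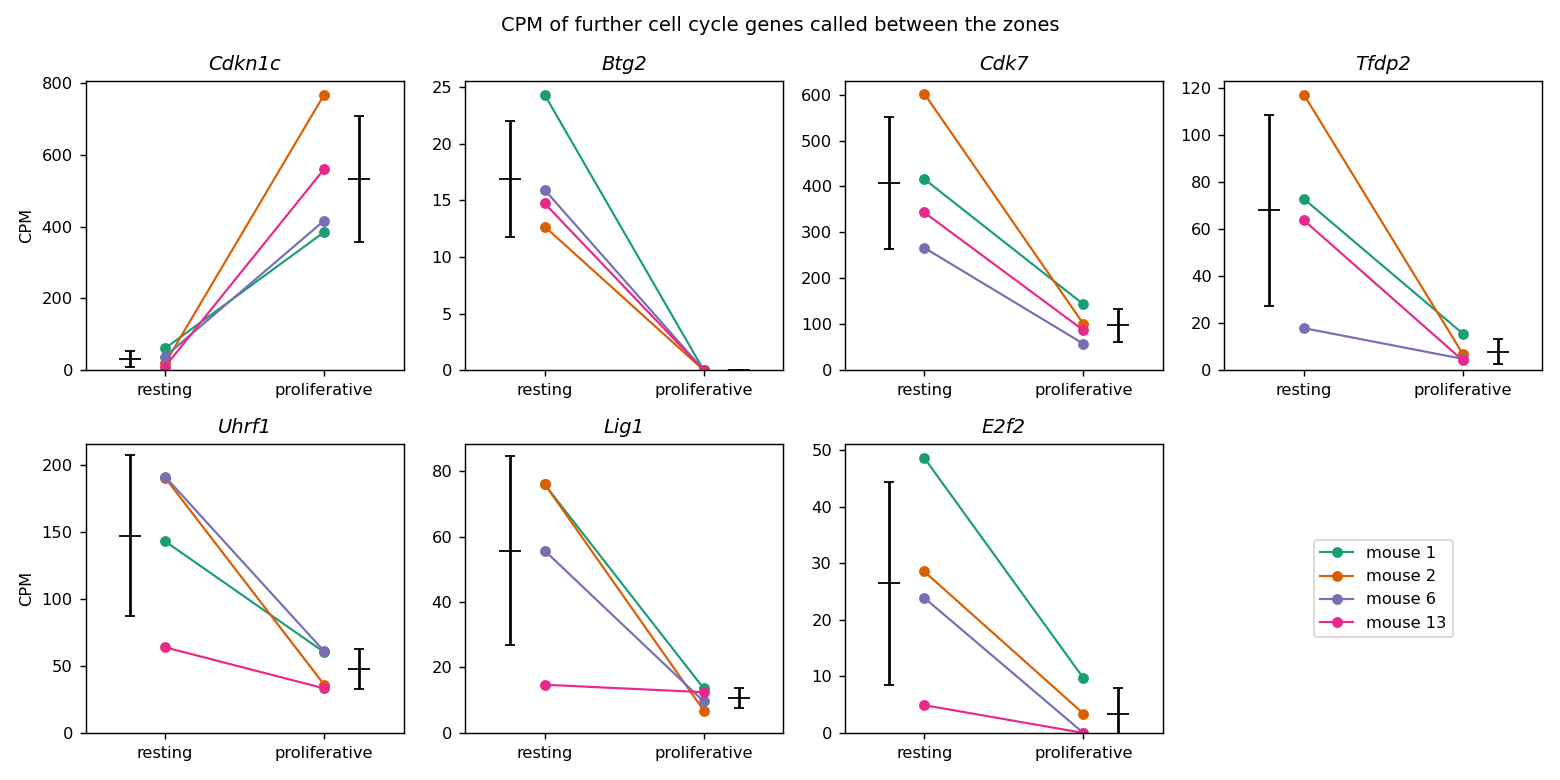
CPM in each library of the 7 further cell cycle genes called between the zones, with the 2 libraries of a mouse joined by a line and the mean ± SD of each zone beside them (n = 4). Cdkn1c is higher in the proliferative zone of all 4 mice and the other 6 genes are higher in the resting zone.

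The difference between the zones was also compared between the 2 male and the 2 female mice. None of the 23 members past the filter had an interaction of zone and sex at an adjusted p below 0.05 in the edgeR quasi-likelihood test, nor at an unadjusted p below 0.05 (0 of 23). Over all 3793 genes, 0 passed and 190 had an unadjusted p below 0.05. In the second fit, 0 of the 44 members reached either limit, while 20 of 11273 genes passed and 455 had an unadjusted p below 0.05. Those 20 include 9 of the cell type markers, from the erythroid, neutrophil, osteoclast and chondrocyte lists. With 2 mice of each sex the resolution was low. The standard error of the interaction on the log2 scale was 0.95 for Rb1 and 1.27 for Mki67 among the members past the filter. The absence of members does not show that the zones differed alike in both sexes.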

How the data were processed

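RNA from laser-microdissected resting and proliferative chondrocytes was amplified by 2 rounds of in vitro transcription before library preparation with a kit that marks strand. Per the submitters' processing notes, reads were aligned with HISAT2 2.1.0 to GRCm38 and assigned with HTSeq 0.11.2, and the authors deposited the whole-number counts per gene without normalization. The strand setting is not given in the sources used here. The other deposited file is the comparison of the zones made by the authors (fold changes and p-values) and was not used.

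All tests started from the counts, in edgeR 4.0.16 (R 4.3.3). Genes passed edgeR's filter by zone (minimum count 10, minimum total 15), library totals were scaled by TMM factors from these genes, and the quasi-likelihood test was fitted with the zone and the mouse, with Benjamini-Hochberg adjustment over all genes fitted. The study's thresholds defined a call. A second fit with the same factors took genes with at least 10 counts in total. For single members and further cell cycle genes it was read only where the filter left a gene out. The marker calls, the called counts by further list and the second sex comparison used it for all their genes. Libraries with the same number came from 1 animal by the labels, so the mouse was kept as a block. Deviations from the zone means correlated within the animal at 0.165 (mouse 1), 0.0136 (mouse 2), 0.137 (mouse 6) and 0.0577 (mouse 13). Libraries of 1 zone all differed by more than sampling noise. The p-values rest on 4 animals per zone, and counting intervals cover counting error only.

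The members and lists were chosen with earlier results of these data known. Values in every library are given for members called in either fit or without the block, the 5 further members with the lowest p, the 3 Cdk inhibitors, the 3 pocket proteins, Mki67, Top2a and Ccnd1, and for up to 5 called genes of each further list. Cdk1, Cdk2, Mcm7, Ccna2, Aurka and Stmn1 were added after their values were seen. Exon overlaps came from GENCODE M21 and promoters from RefSeq. The fits were tested on simulated counts. Alternatives were DESeq2 1.42.0, a likelihood ratio test, other scaling factors, filters and thresholds, no block, and each mouse left out.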

Additional observations from a re-analysis of the deposited data

Results flagged for a closer look

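In 4 of 52 groups of 4 libraries, 1 library stood far from the other 3. The rule is set at a level of about 1 in 20 groups by chance, a rate not measured for counts this sparse. A single count beside 3 libraries at 0, as for Rbl1, is always flagged. These 4 are not independent, since the inhibitor sum contains Cdkn1b and Rbl1. It was the proliferative library of mouse 1 each time. Mki67 was at 33.0 CPM there and at 12.4 to 14.4 CPM in the other proliferative libraries. Cdkn1b was at 248.5 CPM against 192 to 200.2 CPM, the inhibitor sum was at 503 CPM against 344 to 370.02 CPM, and Rbl1 was at 1.94 CPM, from 1 count, against 0 in the other 3. The same library had the highest erythroid, neutrophil and pan-leukocyte marker sums of the proliferative zone. Without mouse 1, the log2 fold change of Cdkn1b was 0.59 and the mean log2 ratio of the inhibitor sum was 1.19.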

How the results depend on the processing

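The number of members called higher in the resting zone, 1 in the edgeR quasi-likelihood test with the mouse as a block, was 2 with DESeq2, 2 with library totals only, 2 over genes with at least 1 count or at least 10 counts in total, 3 with no replicate block, and 4 with a likelihood ratio test or an adjusted p below 0.05, and 0 to 1 with 1 mouse left out (0 without mouse 2 or 13). Members called higher in the proliferative zone stayed at 0 under all of these, as did members under the filter. Called genes of the further lists higher in the resting zone numbered 2, then 6 under either looser filter, and 1 to 2 with 1 mouse left out. Leaving out the block changed the call of Ccnd2, Mcm4 and E2f2 among the genes described. Scaling by library totals only moved the median log2 fold change of all genes from 0.04 to 0.16, and TMM factors from all genes of the second fit, an alternative added after seeing the data, moved its median from 0.25 to 0.06. The cause of these shifts was not tested, apart from the number of genes tested or of libraries. With 1 mouse left out, the log2 fold change ran from -0.67 to 0.89 for Cdkn2c, negative without mouse 13, and from -0.0764 to 0.95 for Rbl2, negative without mouse 1. The G1 sum without its most abundant member had a log2 ratio of 0.60, and without overlapped members it could not be given, since 1 library was at 0. Mki67 without mouse 1 and Mcm4 without mouse 6 fell under the filter and gave no value. With 1 mouse left out, the mean log2 ratio was 0.63 to 0.94 for S phase, 1.01 to 1.46 for the inhibitors, 0.08 to 0.48 for G2/M and -0.03 to 0.20 for G1.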
